A study of Mus musculus with 6 samples.

Results

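Immediate early genes are genes that cells transcribe within minutes of a stimulus, without new protein synthesis. Their transcripts were examined in neuralized embryoid bodies, which are floating aggregates of mouse embryonic stem cells on their way to neural fates, cultured with and without an agonist of the hedgehog pathway. The 10 genes were Fos, Fosb, Jun, Junb, Atf3, Egr1, Dusp1, Zfp36, Ier2 and Ier3. They were taken as all probe sets of the array whose only gene symbol in the platform annotation was one of these, which gave 11 probe sets out of 34945 with 1 symbol, and 10 genes out of 18193. Jun had 2 probe sets and every other gene 1. The 3 RA + Ag1.3 cultures received 500 nM all-trans retinoic acid and 50 nM of the Smoothened agonist Ag1.3 for 3 days. The 3 RA cultures received 500 nM all-trans retinoic acid alone for the same 3 days. In both groups treatment followed 2 days in suspension, and both groups came from a stem cell line that expressed a Gli1-FLAG transgene constitutively from the Rosa26 promoter, so the RA cultures also carried a transcription factor of the hedgehog pathway. Cultures with the same replicate number were grown in parallel and form 3 pairs, per the series' design text. Values are deposited probe set intensities on a linear scale from 1 array per culture.

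The products of these genes act as a first relay between signalling and later transcription. Growth factors, calcium, stretch, stress and the handling of cells activate MAP kinases, which act on factors already bound at the promoters, among them SRF with its Ets partners, and CREB. Fos, Fosb, Jun, Junb and Atf3 encode basic leucine zipper proteins that dimerise, and Fos-Jun dimers form the transcription factor AP-1. Egr1 encodes a zinc finger transcription factor. Dusp1 encodes a phosphatase that switches MAP kinases off, and Zfp36 encodes tristetraprolin, which binds AU-rich elements and shortens the life of transcripts that carry them. Ier2 and Ier3 encode small proteins named for their early induction. Transcripts of this class are short lived, so their level reads the signalling of the last hours before harvest, and in whole aggregates a change within cells and a change in the mix of cells cannot be told apart.

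The promoters are shown for 4 of the genes, and were searched for elements through which such genes are known to respond. RefSeq windows of GRCm38.p6 were used for 8 of the 10 genes, all but Egr1 and Ier2. Each sequence below is the 250 bases before the annotated start, 5′ to 3′ on the gene's own strand, with every motif match in capitals. Ier3 is shown as the gene that changed with Ag1.3 (chr17:35821463-35821712, plus strand). Atf3 is shown as one of those that differed between pairs (chr1:191183334-191183583, minus strand). Fos (chr12:85473640-85473889, plus strand) and Dusp1 (chr17:26508473-26508722, minus strand) are shown as the namesake of AP-1 and as the feedback phosphatase, the member whose pair means lay closest together.
Ier3: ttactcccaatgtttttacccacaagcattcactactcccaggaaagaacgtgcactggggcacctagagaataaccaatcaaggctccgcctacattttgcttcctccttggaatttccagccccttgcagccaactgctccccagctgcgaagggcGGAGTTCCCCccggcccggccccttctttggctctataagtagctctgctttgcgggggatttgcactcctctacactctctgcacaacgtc
Atf3: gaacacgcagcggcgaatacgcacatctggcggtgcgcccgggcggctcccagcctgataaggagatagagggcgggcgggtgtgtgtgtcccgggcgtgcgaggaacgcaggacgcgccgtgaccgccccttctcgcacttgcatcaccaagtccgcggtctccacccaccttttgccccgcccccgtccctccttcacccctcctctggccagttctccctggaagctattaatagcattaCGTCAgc
Fos: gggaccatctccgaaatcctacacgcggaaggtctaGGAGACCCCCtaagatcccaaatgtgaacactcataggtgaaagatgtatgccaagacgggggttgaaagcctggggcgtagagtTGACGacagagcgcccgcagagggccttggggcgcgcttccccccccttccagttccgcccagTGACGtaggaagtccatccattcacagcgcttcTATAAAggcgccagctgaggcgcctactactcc
Dusp1: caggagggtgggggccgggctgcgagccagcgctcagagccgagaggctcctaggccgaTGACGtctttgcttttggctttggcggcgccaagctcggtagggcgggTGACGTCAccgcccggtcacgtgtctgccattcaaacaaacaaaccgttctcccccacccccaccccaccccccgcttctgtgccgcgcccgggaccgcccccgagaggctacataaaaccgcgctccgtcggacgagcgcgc
Motifs were searched on both strands in these windows and in 32851 windows of the same length, and were partly chosen after the sequences had been read. The cAMP response element, bound by CREB and by Atf3 and Jun family dimers, was searched as TGACGTCA and was found in 1 of 8 members, Dusp1, against 1.55% of all windows. Its core, TGACG, which lies inside the full element, was found in 5 of 8 members, namely Fos, Fosb, Junb, Atf3 and Dusp1, against 17.8% of all windows. The CArG box, bound by SRF, was found in Zfp36 alone among these 8, against 1.47% of windows. Sequence beyond the 250 bases was not searched, so a gene without a match here may carry a site further away. The NF-kB site was found in Fos, Fosb and Ier3, against 3.90% of windows, and in Ier3 it began 92 bases before the start. An Egr site, GCGNGGGCG, was found in Fosb and Zfp36, against 4.70% of windows. The TATA box, TATAAA, was found in Fos, 33 bases before the start, against 12.4% of windows. The AP-1 site TGANTCA and the Gli site TGGGTGGTC were found in 0 of 8 members, against 6.75% and 0.225% of windows. A match describes the letters of the window and not a bound site.

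Stimulation of the pathway was visible in Ptch1, the hedgehog receptor and a direct target of the pathway, which rose to 3424 ± 596 in RA + Ag1.3 cultures, against 1482 ± 473 in RA cultures (SD, n = 3 each, limma adjusted p = 0.0232). All 6 neural progenitor markers, Sox1, Sox2, Nes, Pax6, Msi1 and Vim, were above the range of unspiked control probe sets, which lay between 4.02 and 20.7 and serve here as the background level. That range pools 18 values from the 6 arrays, and its top of 20.7 came from RA replicate 2. On the other arrays the highest control value was 12.1 to 15.3. Markers of other cells were also present, as given below. Median intensities of the arrays were 48.9 to 52.7 in RA + Ag1.3 cultures and 48.8 to 52.0 in RA cultures. Hybridization spikes read 0.19 higher on the log2 scale in RA + Ag1.3 arrays.

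With Ag1.3, Ier3 fell and the other 9 immediate early genes did not pass the test. Genes were tested with limma on log2(intensity + 16) with the pair as a block, two-sided, with Benjamini-Hochberg adjustment over all 18193 genes and a threshold of 0.05. In this test 1.41% of all genes passed, 0.324% as lower and 1.08% as higher, and 1 of 10 members passed, as lower. At an unadjusted p under 0.05 there were 4 members, Ier3, Atf3, Egr1 and Fos, against 14.9% of all genes. The median log2 fold change of the members was -0.14, against -0.0071 for all genes, and the members ran from -0.52 for Ier3 to 0.25 for Fos. When all 45037 probe sets were tested, with 0.515% of them past the threshold, 0 of the 11 member probe sets passed with limma, and Ier3 had an adjusted p of 0.0893. At an unadjusted p under 0.05 there were 3 of the 11, against 5244 of all 45037 probe sets.

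**Figure D1:**
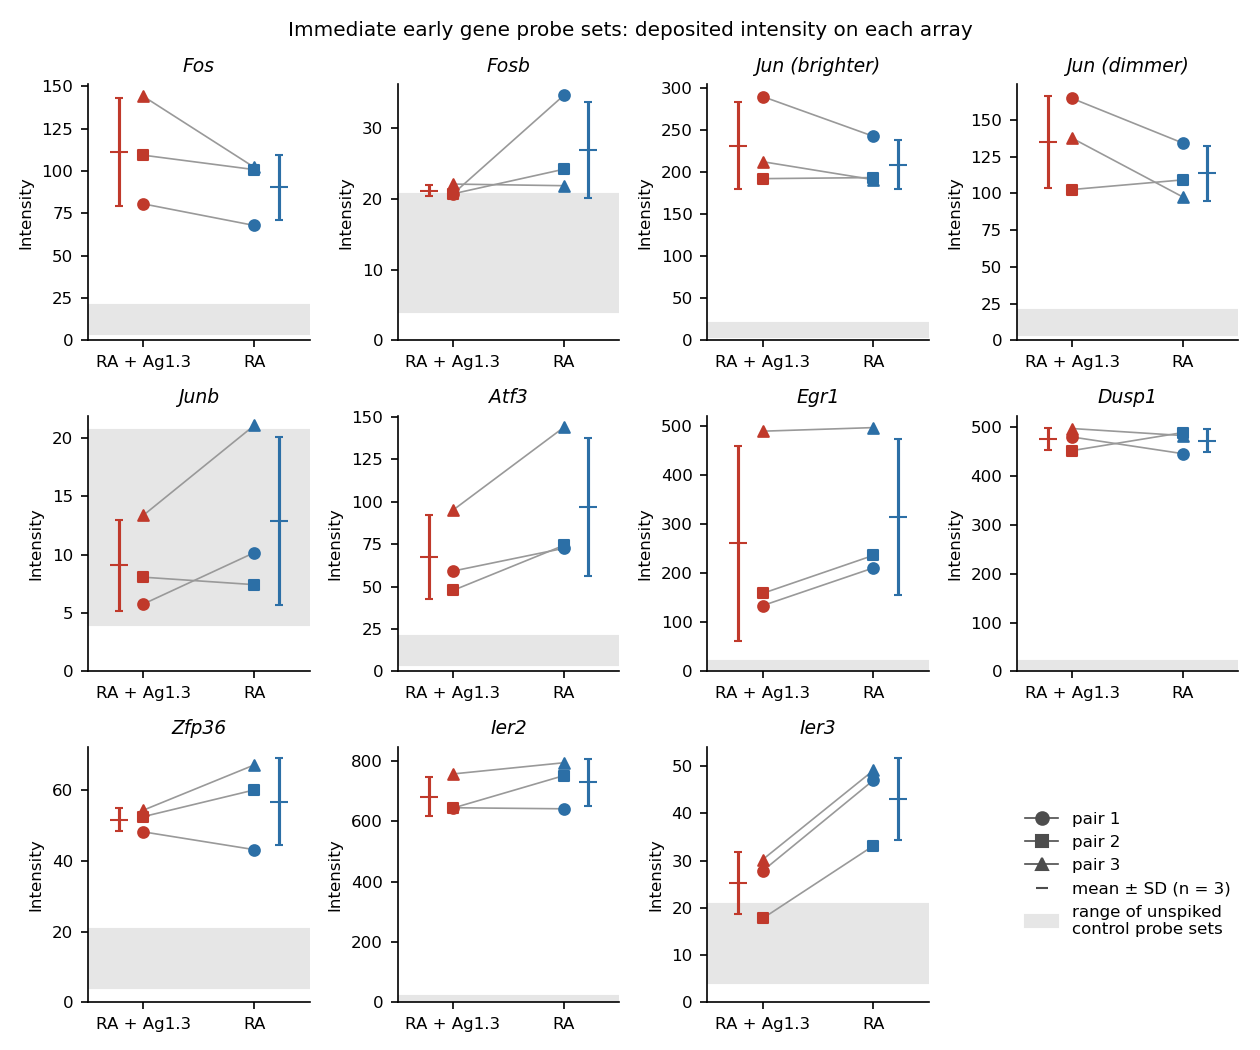
Intensity of the 11 probe sets of the immediate early genes on each array (vertical axes, linear, starting at 0), RA + Ag1.3 on the left and RA on the right of each panel. Symbols stand for pairs 1 to 3 and grey lines join a pair, bars give mean ± SD (n = 3), and the grey band is the range of unspiked control probe sets, 4.02 to 20.7. In Ier3 all RA + Ag1.3 arrays lie below all RA arrays, while in Egr1 and Atf3 the triangles of pair 3 stand above the others in both groups.

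Among the AP-1 subunits, Fos, the partner of Jun in AP-1, read 80.6, 109 and 144 in RA + Ag1.3 replicates 1 to 3 and 67.9, 101 and 102 in RA replicates 1 to 3. It was higher with Ag1.3 in 3 of 3 pairs, as were 17.2% of all genes, but the groups overlapped. Its log2 fold change was 0.25 with a 95% interval of 0.012 to 0.48, and limma's adjusted p was 0.310. Fosb, a close relative of Fos, read 20.7, 20.8 and 22.1 in RA + Ag1.3 cultures and 34.7, 24.2 and 21.9 in RA cultures. These values touch the pooled background range, and only RA replicate 1 stood clearly above it. On each array Fosb read above that array's own highest unspiked control, 13.8 to 15.3 in RA + Ag1.3 and 12.1, 20.7 and 14.4 in RA replicates 1 to 3. Its log2 fold change was -0.20, with a 95% interval of -0.47 to 0.084 (limma adjusted p = 0.497).

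Jun, the subunit that can also pair with itself, read 290, 192 and 213 in RA + Ag1.3 cultures and 243, 194 and 191 in RA cultures by its brighter probe set. Its dimmer probe set read 165, 103 and 138 in RA + Ag1.3 cultures and 134, 109 and 97.5 in RA cultures. Both probe sets had replicate 1 as the highest array of each group and lay slightly lower with Ag1.3 in pair 2. Their log2 fold changes were 0.13 and 0.21, and the brighter one had a 95% interval of -0.087 to 0.34 (limma adjusted p = 0.573). Junb, a weaker activator than Jun, read 5.78, 8.08 and 13.4 in RA + Ag1.3 cultures and 10.2, 7.44 and 21.1 in RA cultures. These values are within the pooled background range, with RA replicate 3 just above it, where the highest unspiked control on its own array read 14.4. On the other arrays Junb was not measured above background, which its log2 fold change of -0.19 largely rests on.

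Atf3, a stress-induced factor that pairs with Jun proteins, read 59.1, 47.7 and 95.0 in RA + Ag1.3 cultures and 72.5, 74.3 and 144 in RA cultures. Replicate 3 was the highest array of each group, and within each pair the RA + Ag1.3 culture was the lower one. The log2 fold change was -0.42 (SE 0.091) with a 95% interval of -0.65 to -0.19, and limma's adjusted p was 0.117. Being lower in all 3 pairs was shared with Egr1 and Ier3 and with 19.5% of all genes. Egr1, a transcription factor that growth factors induce strongly, read 134, 159 and 489 in RA + Ag1.3 cultures and 211, 236 and 497 in RA cultures. In pairs 1 and 2 it was lower with Ag1.3 by 0.60 and 0.53 on the log2 scale, and in pair 3 the cultures were nearly equal, with a difference of -0.021. The log2 fold change was -0.38 with a 95% interval of -0.71 to -0.053 (limma adjusted p = 0.267). Scaling the arrays to the hybridization spikes moved the median log2 fold change of all genes to -0.16, and Atf3 and Egr1 then passed, at -0.42 and -0.40 relative to that median. In that setting 1666 of 18193 genes passed, against 256 in the main test. Atf3 also passed, with limma adjusted p = 0.0241, when dim genes were left out of the test, where 952 of 11441 genes passed.

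Neither feedback gene passed the test. Dusp1 read 480, 452 and 497 in RA + Ag1.3 cultures and 446, 489 and 483 in RA cultures, with means of 477 ± 22.8 and 473 ± 23.4 (SD, n = 3 each). The groups overlapped almost fully, the log2 fold change was 0.011 and its 95% interval of -0.19 to 0.22 bounds a change in either direction. Zfp36 read 48.1, 52.4 and 54.3 in RA + Ag1.3 cultures and 43.1, 60.0 and 67.0 in RA cultures. The RA + Ag1.3 cultures lay within the range of the RA cultures, with a log2 fold change of -0.091 and a 95% interval of -0.33 to 0.15 (limma adjusted p = 0.734).

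Of the last 2 genes, Ier2, a nuclear protein, read 644, 643 and 756 in RA + Ag1.3 cultures and 641, 750 and 793 in RA cultures. The groups overlapped, and the log2 fold change was -0.093 with a 95% interval of -0.30 to 0.11 (limma adjusted p = 0.680). Ier3, which is linked to cell survival and to ERK signalling, read 27.8, 17.8 and 30.2 in RA + Ag1.3 cultures and 47.0, 33.1 and 49.1 in RA cultures. Every RA + Ag1.3 culture lay below every RA culture, which held for 1 of 10 members and for 5.37% of all genes, while 0 of 10 members lay wholly above, as 6.44% of all genes did. Mean intensity was 25.2 ± 6.60 in RA + Ag1.3 cultures and 43.1 ± 8.67 in RA cultures (SD, n = 3 each), a 1.71-fold decrease. On the tested log2(intensity + 16) scale it was -0.52 (SE 0.073), with a 95% interval of -0.70 to -0.34, and limma's adjusted p was 0.0445. The log2 value depended on the pseudocount, at -0.26 with 64 and -0.76 with 1. The 3 pairs gave nearly equal values of -0.52, -0.54 and -0.49. The call was lost without the pairing (limma adjusted p = 0.459), with a pseudocount of 1 (0.135) and without pair 1, 2 or 3 (0.275, 0.218 and 0.108). RA + Ag1.3 replicate 2, at 17.8, lay in the pooled background range, where the highest unspiked control on its own array read 15.1. Pluripotent markers lay lower with Ag1.3 in 6 of 6 genes and simple epithelium markers in 5 of 5, of which 1 each passed (Pou5f1 and Krt8). The endoderm factor Sox17 fell too, to 52.0 ± 35.7 in RA + Ag1.3 cultures, against 138 ± 67.3 in RA cultures (log2 fold change -1.21, limma adjusted p = 0.0158). It was the only 1 of 7 endoderm markers to pass. Of these 7, 4 lay higher with Ag1.3 and 3 lower, with a median log2 fold change of 0.022. The part of these cells in the decrease of Ier3 was not tested.

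**Figure D2:**
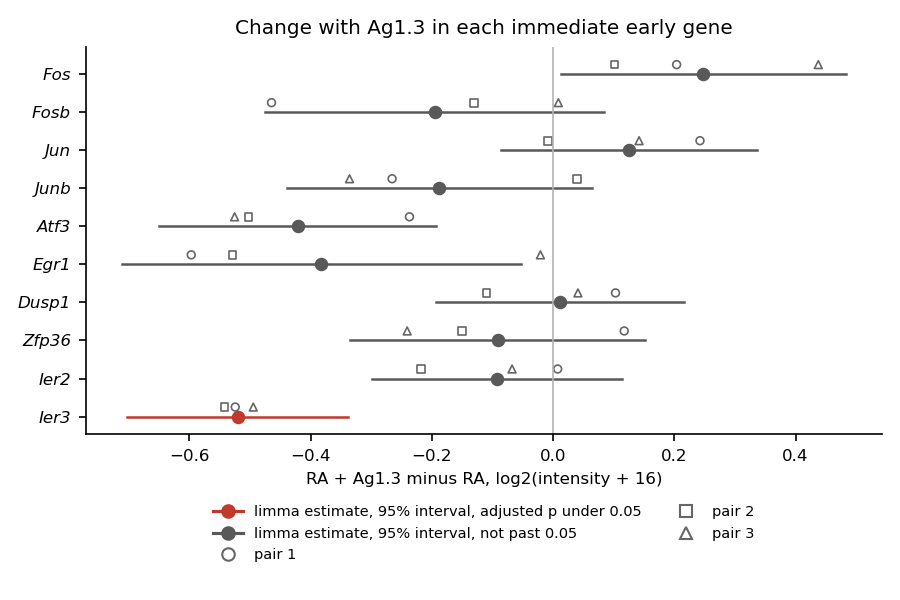
Change with Ag1.3 in each of the 10 genes (rows), as RA + Ag1.3 minus RA on the log2(intensity + 16) scale. Filled points and lines are limma estimates with 95% intervals, red where adjusted p was under 0.05, and open symbols are the 3 single pairs. The 3 pairs of Ier3 lie together near -0.52, whereas those of Egr1 run from -0.60 to -0.021.

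Egr1 and Atf3 differed between pairs of cultures, with both groups highest in pair 3. Replicate 3 was the highest array in both groups for 7 of 10 members, Fos, Junb, Atf3, Egr1, Zfp36, Ier2 and Ier3, against 22% of all genes, and the lowest in both for 0 of 10, against 17.6% of all genes. Related genes did not share this excess. Of 12 other AP-1, Egr and Nr4a genes, replicate 3 was highest in both groups for 1 and lowest in both for 0. Of 42 other primary response genes, it was highest in both for 12 and lowest in both for 11. Egr1 exceeded the mean of replicates 1 and 2 by 1.64 on the log2 scale in RA + Ag1.3 cultures and by 1.10 in RA cultures. For Atf3 these differences were 0.68 and 0.84, and the medians over the 10 members were 0.25 and 0.24, against 0.034 and -0.0048 over all genes. In limma's moderated F-test of the pair, Egr1 (adjusted p = 0.0330) and Atf3 (adjusted p = 0.0478) differed between pairs, 2 of 10 members against 2.33% of all genes. So did 0 of the 12 other AP-1, Egr and Nr4a genes and 7 of the 42 other primary response genes. At an unadjusted p under 0.05 there were 6 members, against 20% of all genes. The highest and lowest pair means were 2.76-fold apart for Egr1 and 1.76-fold for Atf3, and 1.06-fold for Dusp1. Without pair 1 or pair 3 neither Egr1 nor Atf3 passed, with 0 of all genes past the threshold. At an unadjusted p under 0.05 there were then 4 and 3 members, against 2309 and 2276 of 18193 genes. Without pair 2 Egr1 was the only member to pass. Jun went the other way, with pair 1 above the mean of pairs 2 and 3 by 0.40 on the log2 scale. Junb was at background on all arrays but RA replicate 3, so its place among the 7 rests largely on values without a measured level.

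**Figure D3:**
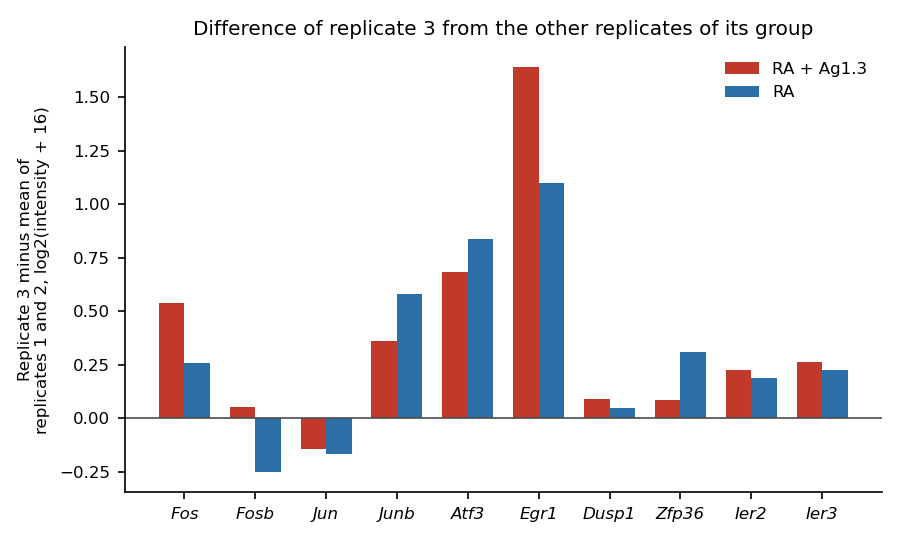
Difference of replicate 3 from the mean of replicates 1 and 2 of its own group, on the log2(intensity + 16) scale, for the 10 genes, with RA + Ag1.3 bars left of RA bars. Egr1 stands out at 1.64 and 1.10, followed by Atf3 at 0.68 and 0.84, and Jun lies below 0 in both groups.

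Cell type markers differed between pairs along with these genes. The summed intensity of 5 simple epithelium markers was 771, 1005 and 2501 in RA + Ag1.3 replicates 1 to 3 and 1320, 1523 and 2991 in RA replicates 1 to 3. The 6 pluripotent markers summed to 2927, 4349 and 5876 in RA + Ag1.3 cultures and to 4648, 6815 and 7591 in RA cultures. In both lists all members had replicate 3 as the highest array of both groups, and none of them was at background. The 6 neural progenitor markers summed to 10258, 9421 and 7614 in RA + Ag1.3 cultures and to 11060, 9879 and 7288 in RA cultures, lowest in replicate 3 of both groups. The 7 neuron markers summed to 6793, 5730 and 4789 in RA + Ag1.3 cultures and to 2774, 2459 and 1652 in RA cultures, and 6 of 7 rose with Ag1.3, namely Elavl4, Stmn2, Nefl, Tubb3, Elavl3 and Dcx, with limma adjusted p from 0.00293 to 0.0364. The 6 mesenchyme markers summed to 481, 610 and 874 in RA + Ag1.3 cultures and to 561, 702 and 894 in RA cultures. The 7 endoderm markers summed to 272, 236 and 414 in RA + Ag1.3 cultures and to 256, 325 and 507 in RA cultures, with Afp and Apoa1 at background. Both sums were highest in replicate 3 of each group. Endothelium markers ran from 210 to 212 in RA + Ag1.3 cultures and from 165 to 229 in RA cultures, with Emcn at background. Of the 5 blood and macrophage markers, Hba-a1, Hbb-bh1 and Ptprc were at background, and the list ran from 167 to 178 in RA + Ag1.3 cultures and from 151 to 181 in RA cultures. The part of these cells in the levels of Egr1 and Atf3 was not tested. The actin 3′ to 5′ signal ratio, a measure of RNA integrity, was 1.33, 1.48 and 1.63 in RA + Ag1.3 replicates 1 to 3 and 1.46, 1.51 and 1.50 in RA replicates 1 to 3, highest in replicate 3 of the RA + Ag1.3 group only.

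**Figure D4:**
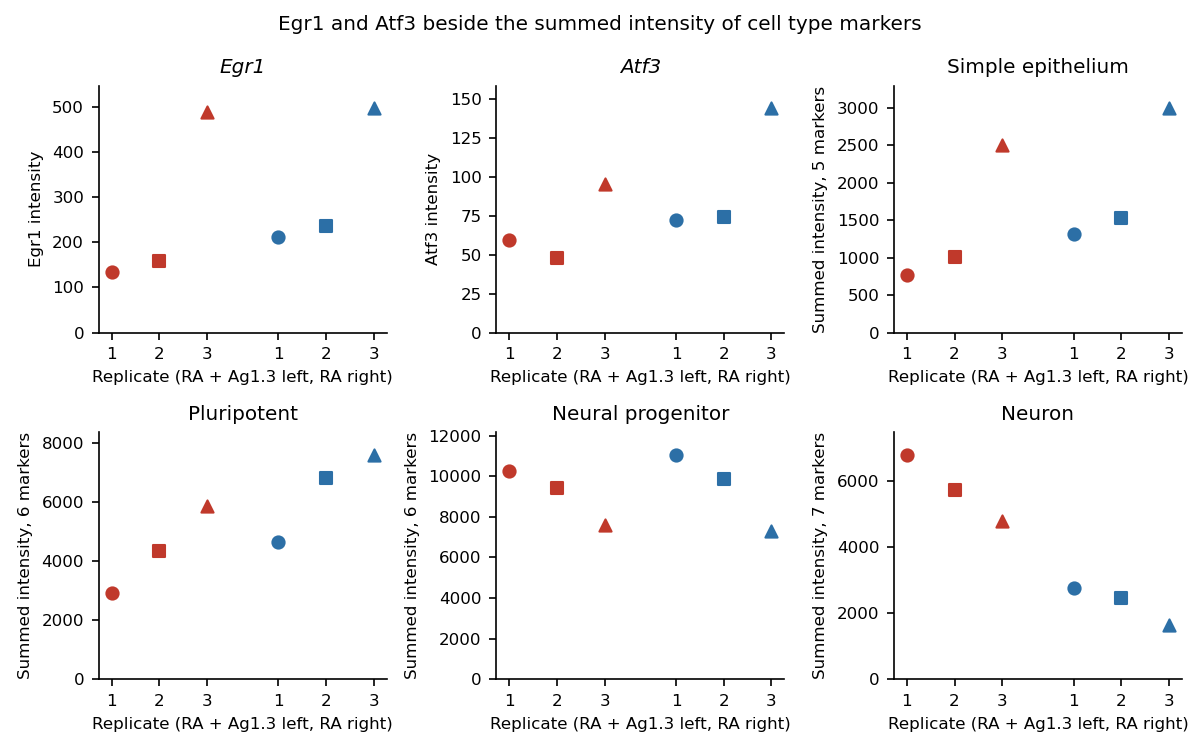
Intensity of Egr1 and Atf3 and the summed intensity of 4 marker lists on each array (linear axes from 0), with RA + Ag1.3 replicates 1 to 3 on the left and RA replicates 1 to 3 on the right of each panel. Egr1, Atf3 and the epithelial sum are highest in replicate 3 of both groups, and the neural progenitor and neuron sums are lowest there.

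Other genes of the response were compared in 5 further lists. Of 12 other AP-1, Egr and Nr4a genes 0 passed with limma, with 1 at an unadjusted p under 0.05 and a median log2 fold change of 0.070. That gene was Egr3, a relative of Egr1, which read 38.9, 36.2 and 39.0 in RA + Ag1.3 cultures and 24.6, 33.5 and 22.4 in RA cultures. Its groups did not overlap, and the log2 fold change of 0.34 missed the threshold with adjusted p = 0.235. Of 42 other primary response genes 2 rose and 0 fell, and 18 had an unadjusted p under 0.05, against 14.9% of all genes, with a median log2 fold change of -0.044. Of these 18, 5 were higher with Ag1.3 and 13 lower, the 13 being Klf2, Klf4, Myc, Gadd45a, Ccn1, Ccn2, Dusp4, Dusp5, Rhob, Sgk1, Errfi1, Nfkbia and Phlda1, which are listed after their values were seen and did not pass. Plk3, a stress-activated kinase, rose to 465 ± 113 in RA + Ag1.3 cultures, against 264 ± 66.9 in RA cultures, a log2 fold change of 0.78 with limma adjusted p = 0.0225. Gadd45g, a growth arrest gene also known from newly forming neurons, rose to 527 ± 214 in RA + Ag1.3 cultures, against 294 ± 139 in RA cultures, a log2 fold change of 0.82 with limma adjusted p = 0.0225. Both had replicate 3 as the lowest array of each group, the reverse of Egr1 and Atf3, and neuron markers, which rose with Ag1.3, were also lowest there, though their part was not tested.

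Upstream of the members, 0 of 16 measured kinases and transcription factors passed with limma, with 3 at an unadjusted p under 0.05 and a median of 0.0099. The kinase Mapk8, which phosphorylates Jun, had the smallest p of these, at 0.27 on the log2 scale (adjusted p = 0.181). Another 5 listed genes were not analysed here. Of 10 heat shock genes 1 fell, Hspb1, a small heat shock protein, to 937 ± 426 in RA + Ag1.3 cultures, against 1491 ± 637 in RA cultures (log2 fold change -0.67, limma adjusted p = 0.0252), and the median was -0.15. Of 7 genes of the integrated stress response, in which Atf3 also takes part, 0 passed with limma and 1 was at an unadjusted p under 0.05, namely Asns at -0.22, and the median was 0.12.

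**Figure D5:**
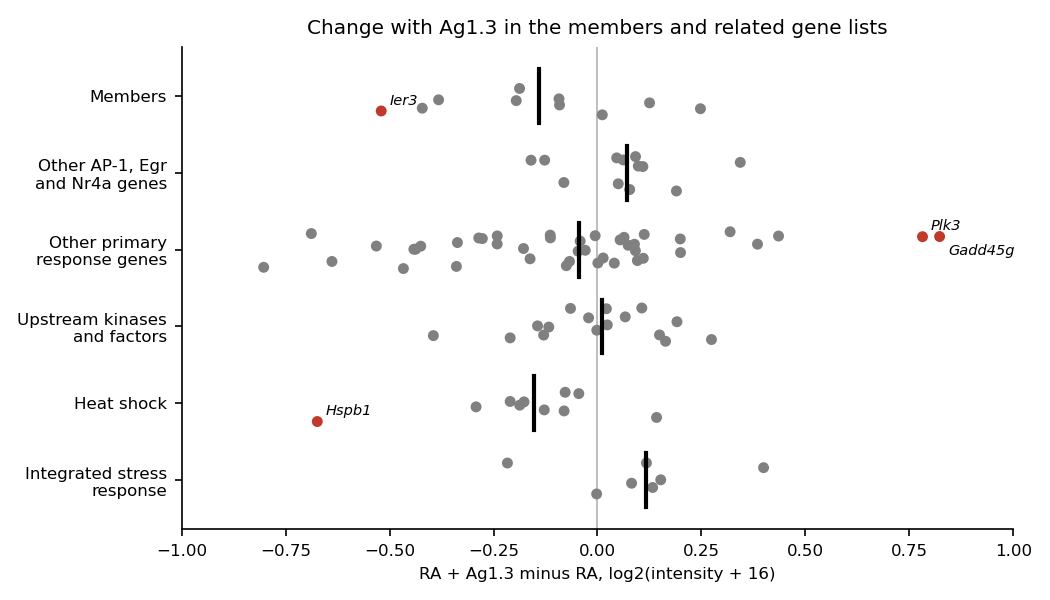
Change with Ag1.3 of the 10 members and of 5 related gene lists, 1 point per gene, as RA + Ag1.3 minus RA on the log2(intensity + 16) scale. Red points passed at adjusted p under 0.05 and carry their names, and black lines are list medians, from -0.15 for heat shock to 0.12 for the integrated stress response.

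The mean pattern of the 7 members brighter than the median probe set, centred on each gene's own mean, was -0.18, -0.21 and 0.25 in RA + Ag1.3 replicates 1 to 3 and -0.16, -0.0028 and 0.29 in RA replicates 1 to 3. Among 11434 other genes of that brightness, Tab3, Parp4, Arhgap44, Abhd4 and Trim26 came closest to it over the 6 arrays, with root mean square differences of 0.023 to 0.036 on the log2 scale. The 5 were picked for this closeness. Among the members, the difference from the mean pattern was 0.096 for Ier2 and 0.50 for Egr1.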

How the data were processed

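Expression was measured on Affymetrix arrays in 3 RA + Ag1.3 and 3 RA cultures. Biotin-labelled cRNA was made by a 3′ in vitro transcription kit (per the labels' protocols), and the authors deposited probe set intensities on a linear scale. How they were summarised and scaled is not given in the sources used here. The table held 45101 probe sets. After removal of 64 controls, 34945 had 1 gene symbol, and the brightest probe set by 6-array mean stood for each of 18193 genes. Tests used lmFit and eBayes of limma 3.58.1 (R 4.3.3) on log2(intensity + 16), a scale that understates changes of dim genes, with the replicate number as a block. A moderated F-test of the same fit compared pairs. SE is limma's moderated standard error. Pairing comes from the design text. Deviations from group means correlated at 0.54, 0.19 and 0.56 across genes for arrays of the same number and at -0.52 to 0.07 otherwise, where genes are not independent replicates. Because each group was centred on its own mean, positive values for the same number push the others down. The contrast between them is therefore not separate evidence for the pairing. The number of arrays limits the precision. The p-values for Ag1.3 rest on the spread of the differences within 3 pairs of parallel cultures of 1 line, which limma's moderation draws towards the spread of all genes. A gene's p therefore does not measure its own spread alone. The SE of Ier3, 0.073, lay near the lowest over all genes, 0.072. The F-test sets the differences between pairs against that same moderated spread. On simulated data of 18193 genes for this comparison, 100% of log2 changes of 1 and 60% of those of 0.5 were recovered (100 genes of each size), and 24 unchanged genes were called. The members and lists were chosen with earlier results of these data known. Named genes are all members, the 3 most significant genes past the threshold per further list (otherwise the 1 with the smallest p), markers past the threshold, the brightest marker of each list (given here only within list sums), the 5 nearest patterns, and Ptch1. Alternatives changed the pseudocount, block, normalization, dim-gene filter, moderation, probe set rule and pairs used. Promoters are from RefSeq, GRCm38.p6.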

Additional observations from a re-analysis of the deposited data

How the results depend on the processing

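The count of members that changed with Ag1.3, 1 of 10, was 0 in limma's test when the replicate block was dropped, at a pseudocount of 1 (where 0 of all genes passed) and without any 1 of the pairs (0 to 0), with 1, 2 and 2 to 4 members at an unadjusted p under 0.05. It was 3 with arrays scaled to the spikes, where the called genes were 17.2% higher against 77.0% as deposited, and 1 (Ier3) or, with dim genes left out, 1 (Atf3) in the others. The 0 of 11 member probe sets became 2 with spike scaling and 1 without dim probe sets. The 2 members that differed between pairs became 0 with a pseudocount of 1 (6 at an unadjusted p under 0.05), 4 with a pseudocount of 64, 1 with quantile normalization, 4 without dim genes, 3 with spike scaling (Jun added) and 3 with the moderation that follows intensity (Fos added), and 0 to 1 without a pair. Of 107 values of single members under alternatives, 95 kept direction and side of the threshold, 5 of Ier3 were no longer past it, and 3 of Atf3 and Egr1 came past it. The other 4 changed sign, none of them past the threshold in either setting: Jun at -0.054 and Dusp1 at -0.17 with spike scaling, and Dusp1 at -0.034 without pair 1 and -0.0033 without pair 3 (0.072 without pair 2). Ier3, Fosb and Junb are dimmer than the median probe set and could not be tested without dim genes. Over all genes, 87 were called with no replicate block, 819 with a pseudocount of 64, 952 without dim genes and 888 with a moderation that follows intensity, against 256, of which 90.8%, 56.7%, 52.2% and 57.8% were higher, and 1666 were called with spike scaling. Without pair 1, 2 or 3 the counts were 40, 50 and 68. Genes that differed between pairs numbered 423, against 1463 to 1621 with spike scaling, a pseudocount of 64, no dim genes or the other moderation. Of all probe sets 232 were called, against 0 to 12 without a pair, 108 with no block, 0 with a pseudocount of 1 and 839 to 1539 in those 4 settings. Background limits Junb, Fosb and Ier3.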
